A study of Mus musculus with 36 samples.

Results

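The MHC class II genes H2-Aa, H2-Ab1, H2-Eb1, H2-DMa, H2-DMb1, H2-Oa and H2-Ob, together with Cd74 and Ciita, were followed as 9 of 22379 annotated mouse genes in ChIP-Seq of H3K4me3 (K4me3) and H3K27me3 (K27me3). The genes were chosen by name. For each mouse, the peaks within 3 kb of any annotated transcription start site (TSS) of the gene, and over the gene body, were collected, and the length of the TSS windows that lay under a peak, in bp, was used as the measure. Whole pancreas was taken from 12 mice of 2 to 4 months, 22 days after tamoxifen gavage, with 3 mice in each of 4 genotypes. Control mice (WT1 to WT3) are labelled wildtype, and in the study controls were C57BL/6 mice or mice that carried only the Mist1creERT allele. EZH2ΔSET mice (EZ1 to EZ3; Mist1creERT/+ EZH2[delta]SET in the labels) lose the SET domain, encoded by Ezh2 exons 16 to 19. The other 6 mice, called P1 to P3 and Q1 to Q3 here, belong to 2 further genotypes that are not described here, and their values are given by mouse. They are not compared with another genotype, but they count in the filter on low values and in the spread of the limma fit. The study describes the Mist1 driver as specific to acinar cells within the pancreas, with likely activity in the oral mucosa. Recombination itself was not checked here, since the peak lists give positions and no read depth.

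MHC class II molecules are heterodimers of an alpha and a beta chain (H2-Aa with H2-Ab1, and H2-Eb1 with an E alpha chain) that present peptides from endosomes to CD4+ T cells. Cd74, the invariant chain, fills the groove during assembly, the H2-DM dimer exchanges its remnant for peptide, and the H2-DO dimer restrains H2-DM. Their transcription depends on an X box and a Y box upstream of each gene, bound by RFX and NF-Y factors, and on the coactivator CIITA, which is present in B cells, dendritic cells and macrophages and which interferon gamma induces in many other cells. K4me3 marks the starts of active genes and many CpG-rich sequences. K27me3 is the product of EZH2 and marks repressed genes.

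The promoters are shown because most of them share letters of the X and Y boxes. RefSeq sequences (GRCm38.p6) were found for 6 of the 9 genes, with 7 entries in all, covering H2-Oa, H2-DMa, H2-DMb1, H2-Ob, H2-Aa and H2-Eb1. In the 250 bases before the start, 5 of the 6 genes (all but H2-DMa) held the letters GNAAC, the core of an X box, followed after 23 to 26 bases by TGATTGG, the Y box. The Y box began 45 to 63 bases before the RefSeq start. These letters were chosen after the sequences had been seen. The search allowed spacers of 12 to 32 bases and found such a pair on the gene strand in 0.24% of 32851 promoters and on either strand in 0.502%. TGATTGG alone was found in 3.64% on the gene strand and 7.23% on either strand. In the following sequences the X box core and the Y box are in capitals.
H2-Ob, chr17:34238803-34238867, plus strand: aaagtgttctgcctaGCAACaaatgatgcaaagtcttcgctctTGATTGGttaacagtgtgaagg
H2-Aa, chr17:34287852-34287919, minus strand: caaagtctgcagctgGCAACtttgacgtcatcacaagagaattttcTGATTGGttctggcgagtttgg
H2-Eb1, chr17:34305761-34305827, plus strand: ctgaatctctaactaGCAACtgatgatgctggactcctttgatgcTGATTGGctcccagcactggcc

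The second exons of H2-Ab1, H2-Eb1 and H2-Aa are shown because K4me3 lay on the 2 beta chain exons, and not on the alpha chain exon, in most mice. They encode the first extracellular domain of the chain, which forms a wall and part of the floor of the peptide groove. Every CG dinucleotide is in capitals. H2-Ab1 exon 2 held 30 in 273 bases, H2-Eb1 exon 2 held 24 in 270 bases and H2-Aa exon 2 held 2 in 249 bases.
H2-Ab1 exon 2, chr17:34264761-34265033, plus strand: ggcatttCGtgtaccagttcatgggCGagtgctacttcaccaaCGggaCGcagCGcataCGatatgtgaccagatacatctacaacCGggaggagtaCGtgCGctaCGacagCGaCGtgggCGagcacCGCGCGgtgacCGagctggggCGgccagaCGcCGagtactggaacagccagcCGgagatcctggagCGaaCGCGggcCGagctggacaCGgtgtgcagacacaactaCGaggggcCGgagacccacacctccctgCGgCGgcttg
H2-Eb1 exon 2, chr17:34309591-34309860, plus strand: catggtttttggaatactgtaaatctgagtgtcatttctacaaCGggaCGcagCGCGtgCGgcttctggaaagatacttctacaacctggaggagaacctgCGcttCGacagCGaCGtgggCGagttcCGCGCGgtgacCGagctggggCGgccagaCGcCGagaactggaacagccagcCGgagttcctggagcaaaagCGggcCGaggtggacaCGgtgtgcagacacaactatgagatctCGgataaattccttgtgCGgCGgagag
H2-Aa exon 2, chr17:34284288-34284536, minus strand: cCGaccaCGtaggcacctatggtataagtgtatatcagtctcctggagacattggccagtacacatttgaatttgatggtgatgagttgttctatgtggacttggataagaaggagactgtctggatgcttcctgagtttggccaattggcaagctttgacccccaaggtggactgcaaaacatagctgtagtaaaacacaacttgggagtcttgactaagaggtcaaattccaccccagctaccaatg
The longest run of identical bases shared by the H2-Ab1 and H2-Eb1 exons was 37, and 3 runs of at least 20 bases held 82 bases. How reads that fit both genes were placed is not given in the sources used here, so the split of the mark between the 2 exons is uncertain.

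The libraries held 17400 to 26081 K4me3 peaks and 21420 to 31274 K27me3 peaks. Libraries WT2 and P1 stood apart from the others. Among autosomal K27me3 peaks, 11.7% in WT2 and 4.39% in P1 overlapped a K4me3 peak of the same mouse, against 0.693% to 2.57% in the other 10. The pancreas label was checked at 12 acinar marker genes, all of which had K4me3 in all 12 mice. Their summed K4me3 length was 47.2 kb in WT2 and 71.2 kb in P1, against 81.9 to 95.8 kb in the other 10 mice. In WT2, 6 of the 12 acinar genes also had K27me3 at a TSS, and in the other 11 mice none had. In whole tissue, fewer cells of a type and less mark per cell cannot be told apart. The values of these 2 libraries are named where they enter, and fitted differences between genotypes are given with and without WT2.

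K4me3 was called at 9 of the 9 genes in WT2 and in P1, at 6 in Q1, and at 3 or 4 in the other 9 mice. Among all genes the number called differed far less, between 13326 in WT2 and 14015 in P1. H2-DMa, H2-Ab1 and H2-Eb1 had K4me3 in all 12 mice, Ciita had it in 8, and H2-Aa, H2-Oa, H2-DMb1, H2-Ob and Cd74 had it in WT2 and P1 with at most 1 further mouse. Over all genes, 56% had K4me3 at a TSS in all 12 mice, against 3 of the 9 genes here.

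**Figure D1:**
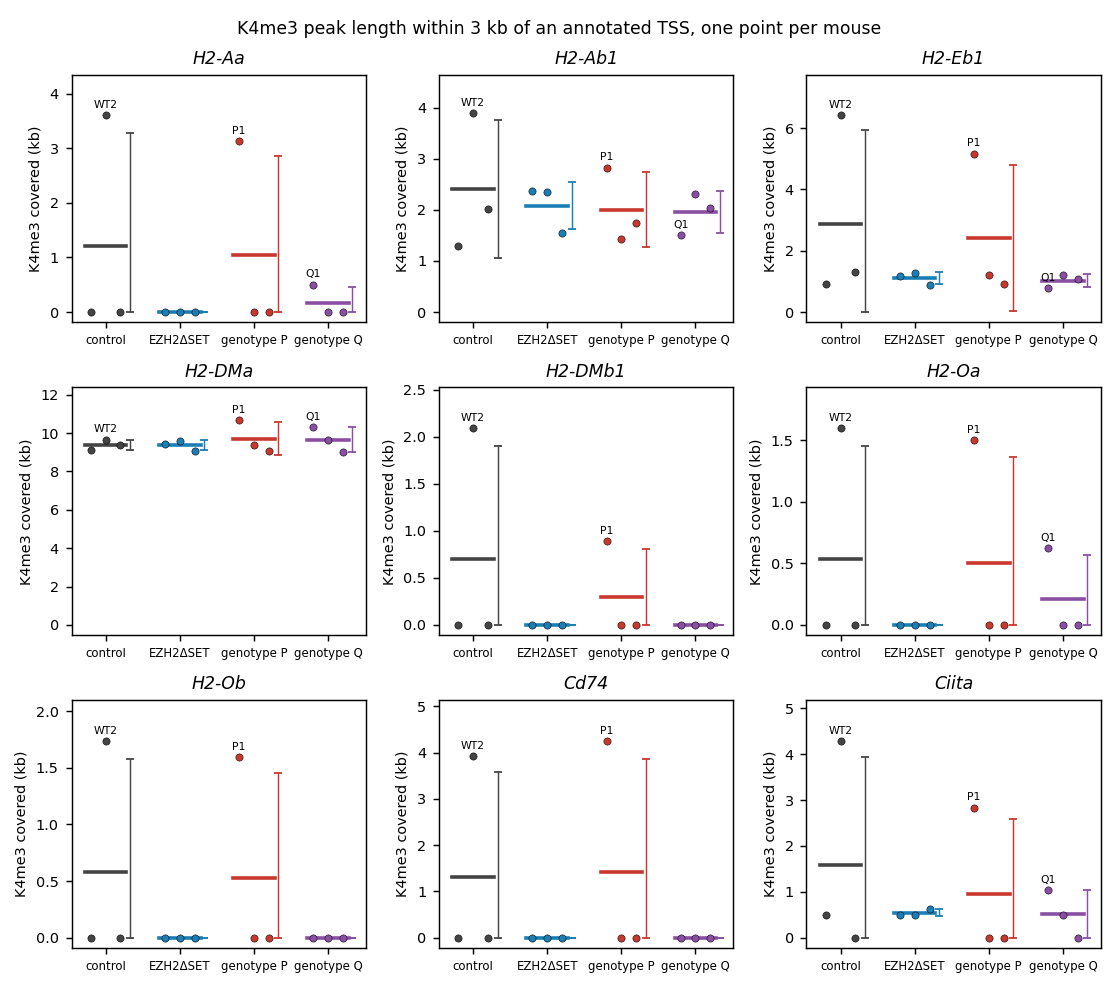
K4me3 length in kb within 3 kb of a TSS for each of the 9 genes, by genotype, with 1 point per mouse, the mean as a line and the SD as an error bar whose lower end stops at 0 (n = 3 mice). WT2 and P1 lie above the other mice of their genotype in all 9 panels, and 5 genes are at 0 in all EZH2ΔSET mice.

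H2-Ab1 encodes the beta chain of the A dimer and had K4me3 at its coding start in all 12 mice. The covered length was 1291, 3903 and 2022 bp in WT1 to WT3, and 2362, 2343 and 1548 bp in EZ1 to EZ3. It was 2830, 1432 and 1743 bp in P1 to P3, and 1502, 2309 and 2047 bp in Q1 to Q3. WT2 and P1 had the longest coverage, and control and EZH2ΔSET mice overlapped. The peaks lay within chr17:34261959-34265861, over exon 1, intron 1, exon 2 and part of intron 2. In WT1, EZ3, P2 and P3 the mark was called as 2 separate peaks, one on the start and one on exon 2, and exon 2 lay under a peak in 11 mice, all but Q1.

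H2-Eb1 encodes the beta chain of the E dimer. Its covered length was 912, 6420 and 1304 bp in control mice, 1160, 1286 and 885 bp in EZH2ΔSET mice, 5168, 1205 and 908 bp in P1 to P3, and 780, 1192 and 1093 bp in Q1 to Q3. The coding start, at chr17:34305867-34306017, lay under a peak in WT2 and P1 only. In the other 10 mice a single peak of 780 to 1304 bp was centred 3.69 to 3.87 kb downstream of that start, on exon 2. A retained-intron transcript of the gene is annotated to start there, at position 34309575. The antisense gene Gm20513 overlaps exon 1 of H2-Eb1, and the exon 2 peak also lies in its TSS windows in all 12 mice, so the mark of these genes cannot be told apart. The value of 12 mice with K4me3 at this gene therefore counts exon 2, and not the coding promoter, in 10 of them.

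H2-Aa encodes the alpha chain that pairs with H2-Ab1. It had 3608 bp of K4me3 in WT2, 3141 bp in P1 and 501 bp in Q1, and none in the other 9 mice. The WT2 and P1 peaks covered the start and intron 1, the one in WT2 reached exon 2, and the Q1 peak had the shortest width in these lists and began 44 bp inside the gene. Coverage thus differed between H2-Aa and its partner H2-Ab1 in the 9 mice with no H2-Aa peak, all of which had 1291 to 2362 bp at H2-Ab1.

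**Figure D2:**
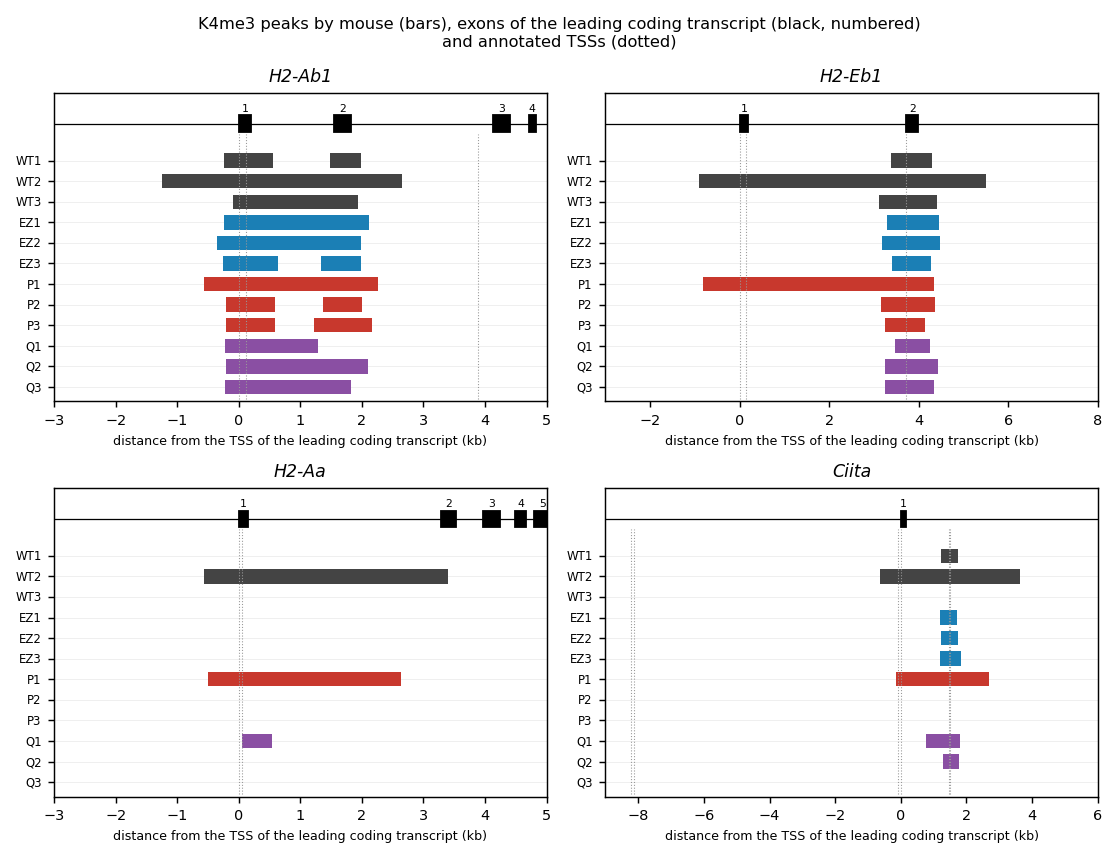
K4me3 peaks (bars, coloured by genotype) of each mouse around H2-Ab1, H2-Eb1, H2-Aa and Ciita, against the distance in kb from the TSS of the leading coding transcript; exons are black and dotted lines are annotated TSSs. At H2-Eb1 only WT2 and P1 reach the coding start, while all 12 mice have a peak on exon 2, and at Ciita 8 mice have a peak on the third TSS cluster.

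The 2 genes of the peptide exchange factor differed from each other. H2-DMa, its alpha chain, had 9030 to 10675 bp covered over the 12 mice, the largest values among the 9 genes, over the windows of 4 start clusters. Most of this came from a peak of 7858 to 8545 bp within chr17:34115765-34124491, which also overlaps the bromodomain gene Brd2, so the mark cannot be assigned to one of them. A second peak of 501 to 1998 bp (within chr17:34135335-34137344) lay on exon 2 in all 12 mice and reached exon 3 in P1 only. It covered the position where coding transcripts H2-DMa-205 and H2-DMa-207 start. A stretch in intron 1 (chr17:34127803-34129666) was called in WT2 and P1 only, and a peak just past the end of the gene (within chr17:34139028-34140326) in 11 mice, all but WT2, of which those of Q1 and Q2 overlapped the last exon. H2-DMb1, the beta chain, had 2093 bp in WT2 and 890 bp in P1 and was 0 in the other 10 mice. H2-Oa and H2-Ob encode the chains of H2-DO, which is known from B cells and thymic epithelium. H2-Oa had 1600 bp in WT2, 1500 bp in P1 and 627 bp in Q1, and H2-Ob had 1735 bp in WT2 and 1594 bp in P1, with 0 elsewhere.

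Cd74, the invariant chain, lies on chromosome 18. It had 3927 bp in WT2 and 4249 bp in P1, from single peaks of 5019 and 4826 bp over the start, exon 1 and intron 1, with the one in WT2 ending in exon 2. No peak was called in the other 10 mice.

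Ciita has 3 clusters of annotated starts on chromosome 16. Its known promoters are, from 5′ to 3′, pI of dendritic cells and macrophages, pIII of B cells and pIV, which responds to interferon gamma. The annotation carries no such names, so the clusters are given by position. The first (10480059 to 10480164) lay under no peak in any mouse. The second (10488178 to 10488279) lay under a peak in WT2 and P1 only, and the third (10489746 to 10489783) lay under one in 8 mice. Covered length was 501, 4285 and 0 bp in control mice, 501, 501 and 627 bp in EZH2ΔSET mice, 2836, 0 and 0 bp in P1 to P3, and 1039, 501 and 0 bp in Q1 to Q3. In 5 of the 8 mice the peak was 501 to 627 bp wide, and 501 bp was the shortest width in the K4me3 lists. WT2 and P1 had peaks of 4285 and 2836 bp that spanned both of these clusters.

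The features with K4me3 in 11 or 12 mice had more CpG than those marked in few mice, with the coding start of H2-Ab1 as an exception. The ratio of observed to expected CpG over 1001 bp was 0.98 and 0.843 at the first H2-DMa start clusters, 0.864 at H2-Ab1 exon 2 and 0.593 at H2-Eb1 exon 2, against a median of 0.541 over all gene starts. At the third H2-DMa cluster and its exon 2, marked in 12 mice, it was lower than this median, at 0.484 and 0.455. It was 0.135 at the coding start of H2-Eb1, 0.23 at H2-Aa, 0.159 at H2-DMb1, 0.201 at H2-Oa, 0.119 at the first H2-Ob cluster and 0.167 at Cd74, all marked in at most 3 mice. Other starts marked in 2 or 3 mice were the second Ciita cluster (0.194), the fourth H2-DMa cluster (0.25) and the second H2-Ob cluster (0.352). Exon 2 of H2-Aa (0.153), H2-DMb1 (0.112) and H2-Ob (0.118) had low ratios and lay under K4me3 in at most 1 mouse. The coding start of H2-Ab1 had 0.289 and K4me3 in 12 mice, and the third Ciita cluster had 0.305 and K4me3 in 8, both lower in ratio than the second H2-Ob cluster. Exon 2 of H2-Oa, at 0.385, lay under no peak. Over all genes, the start lay under K4me3 in all 12 mice for 1.27% of 5059 genes with a ratio below 0.2, for 10.1% of 4093 between 0.2 and 0.4, and for 85.5% of 4086 between 0.8 and 1.

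**Figure D3:**
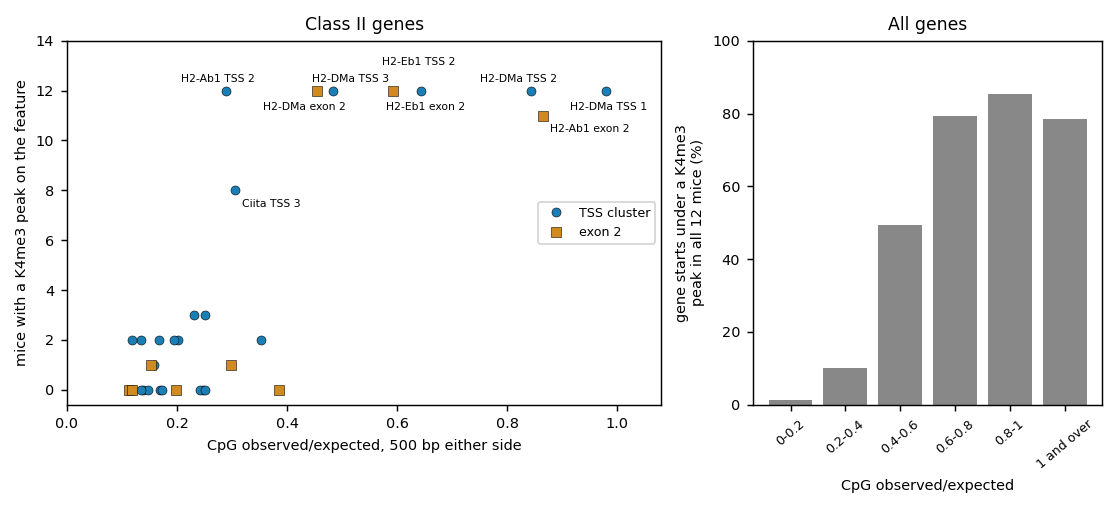
Left, mice with a K4me3 peak on each TSS cluster (circles) and on exon 2 (squares) of the 9 genes, against the observed to expected CpG ratio in a window of 500 bp on either side. Right, percentage of all gene starts that lie under K4me3 in all 12 mice, by the same ratio, which is 1.27% in the lowest class and 85.5% from 0.8 to 1.

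EZH2ΔSET and control mice were then compared to ask whether loss of the EZH2 SET domain changed K4me3 at these genes. No difference passed the test. Covered length was fitted with limma over 14220 genes that had K4me3 in at least 3 mice, which left out H2-DMb1, H2-Ob and Cd74 (2 mice each). H2-Aa and H2-Oa reached 3 mice through WT2, P1 and Q1. None of the 6 genes tested had a Benjamini-Hochberg adjusted p below 0.05, and none had an unadjusted p below it. The smallest adjusted p in limma was 0.764, at H2-Eb1. The share of all genes tested that passed was 0.0563%, which is 6 genes higher and 2 lower in EZH2ΔSET mice, and 6 higher and 6 lower when each library was scaled by its median. At H2-Eb1 the fitted difference between EZH2ΔSET and control mice was -1768 bp (SE 1418), and at Ciita it was -1052 bp (SE 1059). WT2 set these directions. Without it the difference was 2.33 bp at H2-Eb1, 292.5 bp at Ciita, 428 bp at H2-Ab1 (-321 bp with it), and 141 bp at H2-DMa (-1.67 bp with it), and none of these 4 genes passed. H2-Aa (-1203 bp with WT2) and H2-Oa (-533 bp with it) were at 0 in all 5 remaining mice of the 2 genotypes, so without WT2 they gave no comparison. Other single mice moved some values too. Leaving out EZ3 alone gave 150 bp at H2-DMa and -52.8 bp at H2-Ab1. Leaving out WT1 alone gave -878 bp at H2-Ab1 and -138 bp at H2-DMa, and leaving out WT3 alone gave -1850 bp at Ciita.

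K4me3 length was also compared by asking whether all mice of one genotype lay above all mice of the other. This held for 11.3% of all genes with a peak and for 0 of the 9 genes here, whose exact two-sided permutation p was between 0.4 and 1 (smallest possible 0.1 for 3 against 3 mice). This count, these p-values and the following means include WT2. H2-Aa, H2-DMb1, H2-Oa, H2-Ob and Cd74 had a peak in WT2 alone of these 6 mice, so their groups could not separate and their p was fixed. Only H2-Ab1, H2-Eb1, H2-DMa and Ciita could have separated. At H2-Eb1 the means were 2879 ± 3073 bp in control mice and 1110 ± 205 bp in EZH2ΔSET mice (SD, n = 3), and at H2-Ab1 they were 2405 ± 1348 bp and 2084 ± 465 bp. The peak on H2-Eb1 exon 2 was present in all 6 of these mice and in the other 6.

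K27me3 peaks at the starts of these genes were few. No K27me3 peak was called within 3 kb of a TSS of H2-Aa, H2-Eb1, H2-DMa, H2-DMb1, H2-Oa, Cd74 or Ciita in any of the 12 mice. Over all genes, 35.3% had K27me3 at a TSS in at least 1 mouse, and 2 of the 9 genes here did, a count that does not set them apart. From 100 kb before the starts to 3 kb after them, K27me3 was called in 2 to 12 mice at 8 of the 9 genes and in none at Cd74. At H2-Ab1 it was called in 6 mice, with 4832 bp in WT3, 4503 bp in EZ2, 3693 bp in P1, 2786 bp in P3, 5001 bp in Q1 and 4577 bp in Q3. These calls belong to a block that runs from within the H2-Ob gene into the start of the H2-Ab1 gene record (within chr17:34246537-34260172) and lies on or within 3 kb of the start of the noncoding transcript H2-Ab1-207 at 34257689. The block ends before the coding start of H2-Ab1 at 34263209, which lay under no K27me3 peak. With the starts of coding transcripts alone, no K27me3 call remained at any of the 9 genes. Over the gene bodies, H2-Aa had 560 bp of K27me3 in EZ3 and none in the other 11 mice, and H2-Ab1 had 693 to 2484 bp in 5 mice and none in 7.

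At H2-Ob, K27me3 reached a TSS window in P2 (4548 bp) and P3 (4928 bp) only. Over its gene body, K27me3 covered 0, 0 and 2595 bp in control mice and 0, 1548 and 0 bp in EZH2ΔSET mice, which overlapped (exact two-sided permutation p = 1). In the other 6 mice it covered 0 to 7878 bp. Within TSS windows, 1 of the 9 genes, H2-Ab1, had a K27me3 peak in any control or EZH2ΔSET mouse, and its values overlapped between these genotypes. Over all genes with a peak 2.43% did not overlap. In the window from 100 kb before the starts, 7 of the 9 genes had a peak in these 6 mice, and 1 of the 7, H2-Eb1, did not overlap between these genotypes and was higher in EZH2ΔSET mice. Over all genes with a peak in that window 5.5% did not overlap and 5.09% were higher in EZH2ΔSET mice. K27me3 covered 182 to 226 Mb of the autosomes in EZH2ΔSET mice and 149 to 176 Mb in control mice.

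**Figure D4:**
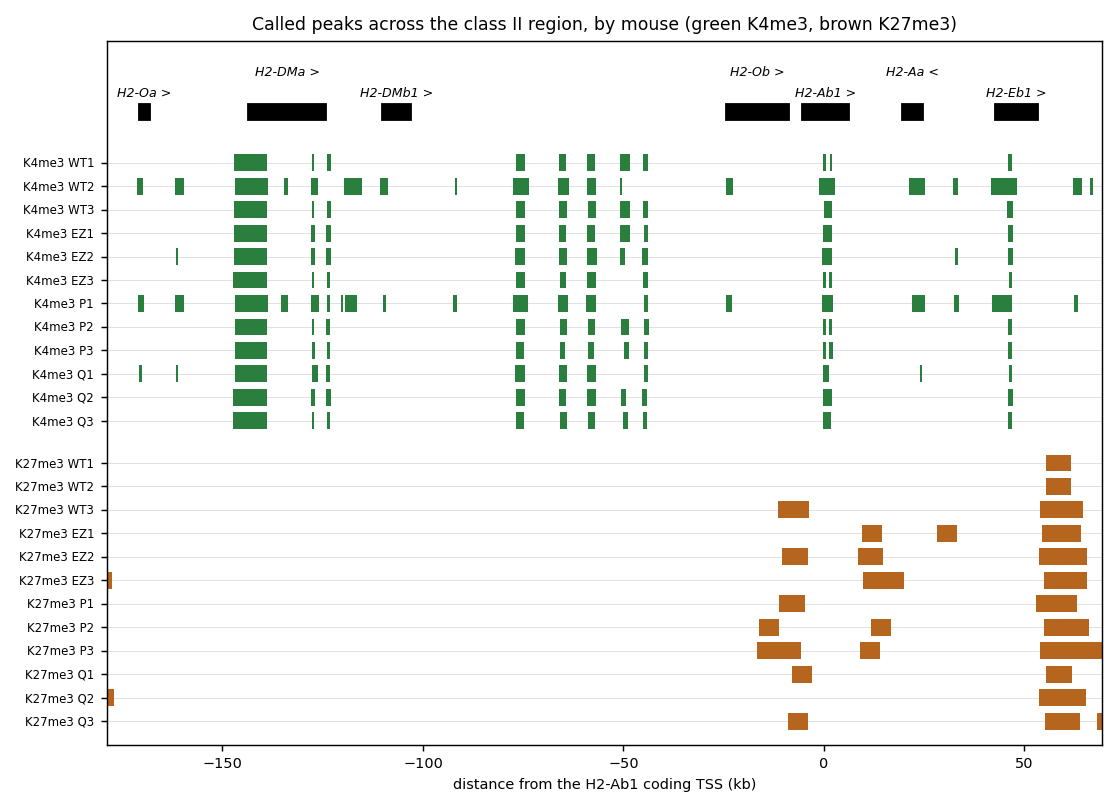
Called K4me3 (green) and K27me3 (brown) peaks of each mouse over the class II genes of chromosome 17, against the distance in kb from the coding TSS of H2-Ab1, with gene bodies as black bars and the direction of transcription as an arrowhead. WT2 and P1 have K4me3 peaks at H2-Oa, H2-DMb1, H2-Ob and H2-Aa, and all 12 mice have a K27me3 block to the right of H2-Eb1.

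From H2-Oa to H2-Eb1 (chr17:34092340-34316674, 224 kb), K4me3 covered 21.8% of the sequence in WT2 and 20.1% in P1, and 8.56% to 11.1% in the other 10 mice. K27me3 covered 0 to 7.11% of it. A K27me3 block over H2-Eb2, next to H2-Eb1, was called in all 12 mice, with widths of 6257 to 11864 bp, and in P1 it covered 444 bp at the 3′ end of H2-Eb1. H2-Eb2 is a further class II beta chain gene.

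WT2, P1 and Q1, the mice with K4me3 at H2-Aa and H2-Oa, also had the most K4me3 at leukocyte markers. Over 17 pan-leukocyte, B-cell and T-cell marker genes, K4me3 was called at 15 in WT2, 16 in P1, 9 in Q1, 6 in EZ2 and 2 or 3 in the other 8 mice. The summed length was 69.1 kb in WT2, 65.0 kb in P1, 17.2 kb in Q1 and 2.36 to 5.50 kb in the other 9. The class II genes, summed without H2-DMa, had 27.6 kb in WT2, 22.2 kb in P1, 4.45 kb in Q1 and 2.64 to 4.13 kb in the other 9. The B-cell markers Cd79a, Cd79b, Ms4a1 and Blk were called in WT2 and in P1 and were at 0 in the other 10 mice. Pax5, the B-cell identity factor, did not share this pattern, with 10956 bp in WT2, 8191 bp in P1, 501 to 1512 bp in 6 further mice and 0 in 4. Of 11 macrophage and dendritic-cell markers, 3 were called in WT2, 4 in P1 and 2 or 3 elsewhere, with summed lengths of 4.72 kb in WT2, 7.82 kb in P1 and 3.34 to 7.07 kb in the other 10 mice. Csf1r, Adgre1, Itgam, Itgax, Lyz2, Tyrobp and Xcr1 had no K4me3 in any mouse. Flt3, the receptor of dendritic-cell precursors, was called in WT2 (1023 bp) and P1 (771 bp) only. Fcer1g, the signalling chain of Fc receptors, was called in P1 (3590 bp), P2 (2895 bp), P3 (1977 bp) and EZ2 (501 bp) and was at 0 in the other 8 mice, WT2 and Q1 included. With windows of 1 kb most of this length was lost, and EZ2 had none. Zbtb46 was called in all 12 mice. Cd68 was too, but with 169 to 393 bp. This is less than the shortest K4me3 peak of 501 bp, so its peaks lay partly outside the TSS window. Markers of other cell types also differed in these libraries. The endothelial gene Pecam1 had 4264 bp in WT2, 4295 bp in P1, 501 bp in Q1 and 0 elsewhere. Of the other endothelial markers, Kdr was called in all 12 mice and Cdh5 in none. Duct markers summed to 8807 bp in WT2 and 15080 to 20155 bp in the other mice. The part of leukocyte content, or of other cell types, in the class II values was not tested.

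**Figure D5:**
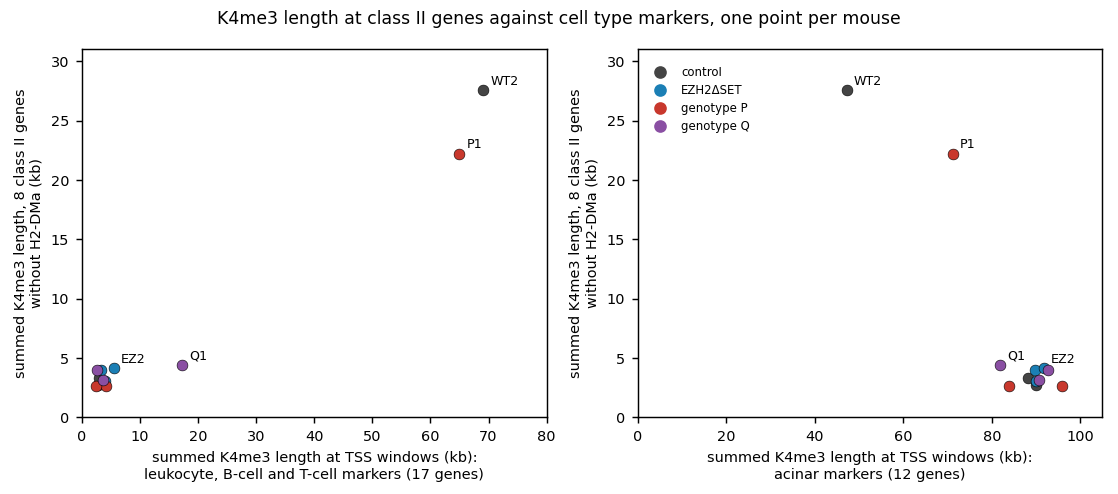
Summed K4me3 length in kb of the 8 class II genes other than H2-DMa, by mouse, against that of 17 leukocyte, B-cell and T-cell marker genes (left) and of 12 acinar marker genes (right), with colours for genotype. WT2 and P1 lie at 69.1 and 65.0 kb of leukocyte marker coverage and the other mice at 17.2 kb or less, and these 2 mice have the lowest acinar marker coverage.

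Other genes were also called in WT2 and P1 alone. Of 297 genes called in exactly 2 of the 12 mice, 162 were called in these 2, and the next pair of mice shared 10. H2-DMb1, H2-Ob and Cd74 were among the 162. When the mean pattern of the 6 tested class II genes over the 12 mice was set against that of every other tested gene, the most alike were Pik3cd, Lpxn, Grap2, Il10ra and Dock10, with Pearson r between 0.989 and 0.992 across 12 mice. Without WT2 and P1 the correlations were 0.799 to 0.868 over 10 mice, of which Q1 had the highest value of each gene and of the mean pattern. The genes had been picked by their r over all 12 mice, and H2-Aa and H2-Oa entered the pattern through WT2, P1 and Q1. All these values share the same libraries, and over the 12 mice WT2 and P1 had the highest of them. Pik3cd and Il10ra encode a leukocyte PI3 kinase subunit and the interleukin-10 receptor.

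Genes that act with Ciita on the class II promoters were also followed. All 7 genes of the X and Y box complex (Rfx5, Rfxank, Rfxap, Nfya, Nfyb, Nfyc and Creb1) had K4me3 in 12 of 12 mice and K27me3 in none, and 0 of 7 passed the limma test between EZH2ΔSET and control mice. Of 12 genes on the interferon gamma route to Ciita, 10 had K4me3 in all mice, among them the receptor genes Ifngr1 and Ifngr2 and the factor Irf1. The summed length of the 12 was 40183 bp in WT2 and 41668 bp in P1, against 25613 to 28939 bp in the other mice. Irf8 had 4863 bp in WT2 and 5340 bp in P1, against 910 to 1561 bp elsewhere. Irf4 had 3354 and 2953 bp in them, against 501 to 1085 bp. Jak2 went the other way, with its lowest values in WT2 (4606 bp) and P1 (4824 bp). Ifng, the cytokine, had none in any mouse. Spi1, which encodes the myeloid and B-cell factor PU.1, had 2624 bp in WT2 and 1607 bp in P1 and 0 elsewhere. None of the 10 that were tested passed. Of 7 genes of peptide processing, 6 had K4me3 in all mice, and Ctss, a protease that trims the invariant chain, was called in WT2, P1 and Q1. Of 7 genes of co-stimulation and class II turnover, 4 were tested and 0 passed, and the co-stimulatory ligand Cd86 was called in WT2 (1678 bp) and P1 (1628 bp) only. Of the same chromosomal region, 6 genes of class I presentation (Tap1, Tap2, Psmb8, Psmb9, H2-K1 and Tapbp) and Brd2 had K4me3 in 12 of 12 mice and none had K27me3, and 0 of 7 passed. Tap1 and Psmb9 had the same covered length in each mouse. The summed length of the 7 was 30512 bp in WT2 and 29388 bp in P1, against 20974 to 25099 bp in the other mice.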

How the data were processed

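ChIP-Seq of K4me3 and K27me3 on whole pancreas was analyzed for 12 mice, 24 peak lists in all, and 12 input samples were not used here. Reads had been checked with FastQC and aligned to mm10 with Bowtie2 by the authors, who called peaks for every animal separately against its input (HOMER findPeaks, histone style). Tool names without versions come from the submitters' processing notes. The deposited score column is 1 for every peak, so only peak positions were used, read depth is unknown, and a deeper library can hold more or wider peaks.

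Peaks were set against GENCODE vM21 on the same build (55450 genes, 22379 with an Entrez identifier on chromosomes 1 to 19, X and Y). A gene was called when a peak overlapped a TSS window of 3 kb on either side by 1 bp, and covered bp was the measure. Genes with K4me3 in at least 3 mice were tested with limma 3.58.1 (R 4.3.3, trend and robust, 1 fit over 4 genotypes, Benjamini-Hochberg), and single values by exact permutation (Python 3.11.15, numpy 2.4.6, pandas 2.3.3). K27me3 was compared by overlap of groups. EZH2ΔSET and control mice were compared, and the other 2 genotypes entered the fit for the spread; their comparisons, and a few marker genes, are not reported here. Window code and fit were tested on simulated data. The labels do not say that mice of a genotype differ in litter or batch, and p-values measure the spread between these mice. The study used male and female mice, and sex did not enter the fit. K27me3 peaks on X numbered 10 to 35 in EZ2 and P1 to P3, against 5637 to 7367 in the other mice. Start clusters join TSSs no more than 500 bp apart. All 9 genes are named, and of the pathway and neighbour lists those past the test, those with K27me3 in all 3 mice of a genotype and the 5 most alike in pattern; genes beside these were named after their values were seen. The genes and lists were chosen with earlier results of these data known. Of the same-number pairs of EZH2ΔSET and control mice, one correlated at under 0.1 in its deviations, so the numbers were not taken as pairs. Alternatives were other windows, scales, filters and peak sets, a replicate block and each mouse left out.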

Additional observations from a re-analysis of the deposited data

How the results depend on the processing

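No class II gene passed the K4me3 test between EZH2ΔSET and control mice in any of 23 settings (0 in each, and 0 to 0 when 1 mouse was left out; H2-Aa and H2-Oa could not differ without WT2), and the smallest adjusted p of any of them in limma was 0.454. With the replicate number as a block the count was 0. Same-number correlations between these genotypes were 0.0668 to 0.24, one of them under 0.1, and those between unlike numbers were -0.224 to 0.157. Whether same-number mice share a batch was not tested. Over pairs with the other genotypes, same-number correlations ran from -0.705 to 0.549. Over all genes the count went from 8 to 4 with the block, to 3 with windows of 1 kb, to 14 with equal numbers of peaks, to 22 without WT2, to 3 without WT1, to 2 without EZ1 or EZ3 and to 5 without P3. In alternatives added after seeing the data it was 25 without WT2 and P1 and 36 without WT2, P1 and Q1; the cause was not tested.

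Genes with K4me3 in all mice of a genotype numbered 3 in control and 4 in EZH2ΔSET mice, but 1 in each (H2-DMa) when only the 5′ end of the gene record was used, and 3 to 4 and 4 to 4 with 1 mouse left out. K27me3 calls, counted over genes and mice, were 1 in control and 1 in EZH2ΔSET mice. They were 2 and 3 over gene bodies, 6 and 10 within 100 kb upstream, 0 and 0 for peaks of at least 10 kb, 0 and 0 at coding starts (added after seeing the data), and 0 to 1 in both with 1 mouse left out (0 without WT3 or EZ2). Genes whose K27me3 values did not overlap went from 0 to 1 within 100 kb upstream (H2-Eb1, where 5.5% of all genes with a peak did not overlap) and stayed at 0 with 1 mouse left out in the 3 kb windows, where H2-Ab1 alone had a peak in these mice. The median width of K4me3 peaks at these genes was 1170 bp and stayed within 1.5 times of it in every alternative. Peak lists without depth limit all of this: a missing peak says only that none was called.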

Other observations

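In a wider window that began 100 kb before its starts and ended 3 kb after them, H2-Eb1 had K27me3 of 10002, 12620 and 10407 bp in EZH2ΔSET mice and 0, 0 and 7701 bp in control mice, which did not overlap (exact two-sided permutation p = 0.1, the smallest possible). Of the 7 class II genes with a peak in that window in these 6 mice, it was the only one that did not overlap. Over all genes with a peak in that window, 5.5% did not overlap. In the other 6 mice H2-Eb1 had 0 to 15939 bp. EZH2ΔSET mice also had more autosomal K27me3 in all (182 to 226 Mb against 149 to 176 Mb), and its part in this value was not tested. The 226 Mb came from EZ2, while EZ1 and EZ3 had 181.5 and 182.5 Mb and WT3 had 175.8 Mb. EZ2 had 17 K27me3 peaks on X, against 5637 to 7367 in EZ1, EZ3 and the control mice.

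Of the remaining class II genes, H2-Eb2 had K27me3 at a TSS in all 12 mice and K4me3 in WT2 (2178 bp) and P1 (974 bp). H2-Ea-ps, a pseudogene of the E alpha chain, had K27me3 at a TSS in 10 mice and K4me3 in none. H2-DMb2, a second DM beta chain gene, had 4323 bp of K4me3 in WT2 and 3494 bp in P1, at most 20 bp in other mice, and no K27me3. BC051142, a neighbour of these genes, had both marks in all 12 mice. Of 19 neighbouring genes, 13 to 16 had K4me3 and 2 to 4 had K27me3 in each mouse, and the 14 tested gave 0 calls in limma (adjusted p).

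The B-cell factor gene Pax5 had K27me3 at a TSS in all 12 mice and K4me3 in 8. The pan-leukocyte genes Ptprc and Cd53 had K27me3 in 10 mice each.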
